A study of Mus musculus with 7 samples.

Results

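The transcription factor p53, its targets, and the genes of DNA damage checkpoints, Fanconi anaemia repair and double-strand break repair were described in LT-HSCs, the long-term haematopoietic stem cells, of aged mice. The group holds 43 genes, given as a list of symbols, of the 53458 genes quantified. The list has p53 and its 2 main inhibitors, 21 p53 targets and 19 repair and checkpoint genes. These cells are few in marrow and keep blood production going through life. They were sorted from marrow of aged C57/BL6 mice as cells without lineage antigens, Flt3 or CD48 and with Sca1, cKit and CD150. There were 3 libraries from mice heterozygous for Srp72 (Srp72+/-) and 4 libraries from wild-type mice (WT, Srp72+/+). Srp72 encodes a subunit of the signal recognition particle, which directs secretory proteins to the endoplasmic reticulum. The labels give no treatment, no exact age and no further allele, and they do not say how the Srp72 allele was made.

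p53 is held at a low level by Mdm2 and Mdm4. After DNA damage the kinases Atm and Atr, acting in part through Chek2 and Chek1, relieve this inhibition, and p53 then activates genes that arrest the cell cycle, kill the cell or assist repair. The Fanconi pathway removes crosslinks between DNA strands: a core complex marks Fancd2 and Fanci, and Brca1, Brca2 and Palb2 carry out homologous recombination. Loss of Fanconi genes causes failure of blood stem cells, and many repair genes are transcribed with the cell cycle through E2F factors.

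Promoter sequences of 6 of the genes are shown as examples of an E2F motif and of a full p53 element. The share of genes with an E2F motif differed between the repair genes and p53 targets of this group, but further p53 targets did not have the low share. Each runs 5′ to 3′ on the gene's own strand, from 200 bases before to 30 bases after the annotated start, from RefSeq on GRCm38.p6. Capitals mark a p53 element in Cdkn1a and an E2F motif in the others. The p53 element here means 2 decamers that match the pattern RRRCWWGYYY, with the bases of a short spacer between them. The stretch marked in Cdkn1a is 32 bases long. In the pattern R is A or G, W is A or T and Y is C or T. Cdkn1a also has an annotated start further downstream, and the window shown is that of the upstream start.
The windows are chr17:29090779-29091008, plus strand (Cdkn1a), chr11:101551926-101552155, minus strand (Brca1), chr5:150522421-150522650, plus strand (Brca2), chr7:79392138-79392367, plus strand (Fanci), chr5:110839783-110840012, plus strand (Chek2) and chr19:56548193-56548422, minus strand (Dclre1a).
Cdkn1a: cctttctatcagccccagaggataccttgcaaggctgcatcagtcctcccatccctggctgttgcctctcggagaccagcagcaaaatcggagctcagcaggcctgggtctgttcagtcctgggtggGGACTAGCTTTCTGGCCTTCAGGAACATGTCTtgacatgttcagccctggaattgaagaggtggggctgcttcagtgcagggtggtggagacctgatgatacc
Brca1: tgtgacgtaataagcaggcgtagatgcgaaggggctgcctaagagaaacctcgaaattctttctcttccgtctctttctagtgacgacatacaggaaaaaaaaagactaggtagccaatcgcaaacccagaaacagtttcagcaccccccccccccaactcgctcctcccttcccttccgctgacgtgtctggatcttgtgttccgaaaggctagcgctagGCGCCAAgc
Brca2: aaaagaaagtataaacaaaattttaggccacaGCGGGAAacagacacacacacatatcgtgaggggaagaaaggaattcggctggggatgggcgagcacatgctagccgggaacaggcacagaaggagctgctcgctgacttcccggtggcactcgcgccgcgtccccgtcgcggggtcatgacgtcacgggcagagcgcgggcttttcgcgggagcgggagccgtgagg
Fanci: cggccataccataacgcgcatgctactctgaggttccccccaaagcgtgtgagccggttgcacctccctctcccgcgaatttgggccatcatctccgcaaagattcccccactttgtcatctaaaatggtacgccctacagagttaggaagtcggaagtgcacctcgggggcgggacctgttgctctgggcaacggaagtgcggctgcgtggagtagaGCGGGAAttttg
Chek2: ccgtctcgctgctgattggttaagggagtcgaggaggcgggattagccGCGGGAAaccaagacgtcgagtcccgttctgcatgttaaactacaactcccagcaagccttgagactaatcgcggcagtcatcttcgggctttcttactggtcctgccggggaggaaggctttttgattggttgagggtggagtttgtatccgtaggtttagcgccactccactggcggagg
Dclre1a: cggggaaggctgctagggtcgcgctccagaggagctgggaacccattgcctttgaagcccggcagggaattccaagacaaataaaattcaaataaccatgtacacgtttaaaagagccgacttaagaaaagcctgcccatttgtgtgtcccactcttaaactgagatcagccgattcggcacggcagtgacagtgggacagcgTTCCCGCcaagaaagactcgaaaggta

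Motifs were counted in windows from 250 bases before to 50 bases after the start, on both strands, and 34 of the 43 genes matched such a window. An E2F motif (the letters TTCCCGC or the letters TTGGCGC or the letters TTCGCGC or the letters TTGCCGC) was present for 11 of 17 repair and checkpoint genes (64.7%) and for 1 of 14 p53 targets (7.14%), against 2936 of 27025 genes overall (10.9%). Among all genes with a window in the middle GC range of the repair genes, 55.3% to 63.0% GC, the share was 15.7%. Outside the 43, a match was present for 6 of 14 further p53 targets (42.9%), 10 of 21 Fanconi and recombination genes (47.6%) and 5 of 10 checkpoint genes (50%). It was present for 2 of 5 end joining genes (40%), 5 of 17 excision, mismatch and bypass genes (29.4%) and 11 of 29 proliferation genes (37.9%). The low share of the p53 targets in the group was thus not seen in the further p53 targets. In the sequences above the E2F match starts 152 bases before the start in Chek2 and 168 bases before it in Brca2. It lies just after the start in Dclre1a, Fanci and Brca1, at positions 4, 19 and 22 counted from 1 at the start. The other repair genes of the 43 with a match were Fancg, Fancm, Atm, Chek1, Xrcc6 and Lig4, and the 1 p53 target of the 43 was Sesn1. A single p53 decamer, of the pair that makes a full p53 element, was found for 6 of 14 p53 targets (42.9%) and 2 of 17 repair genes (11.8%), against 9.55% of all genes. A full p53 element that matched the pattern within the window was found only in Cdkn1a among these genes, and in 20 genes overall (0.074%). Sites outside the window, or that depart from the pattern, were not looked for, so genes without a match may still have a p53 site. The window of the downstream Cdkn1a start (chr17:29093519-29093818) held 0 full elements and 0 single decamers. The CHR motif of mitotic genes (the letters TTTGAA or the letters TTCGAA) was present for 2 of 17 repair genes (11.8%) and 2 of 14 p53 targets (14.3%), against 21.7% of all genes and 15 of 29 proliferation genes (51.7%). The CCAAT motif was present for 9 of 17 repair genes (52.9%) and 8 of 14 p53 targets (57.1%), against 41.1% of all genes. The letters of these motifs, the p53 pattern included, do not show that a factor binds there.

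**Figure D1:**
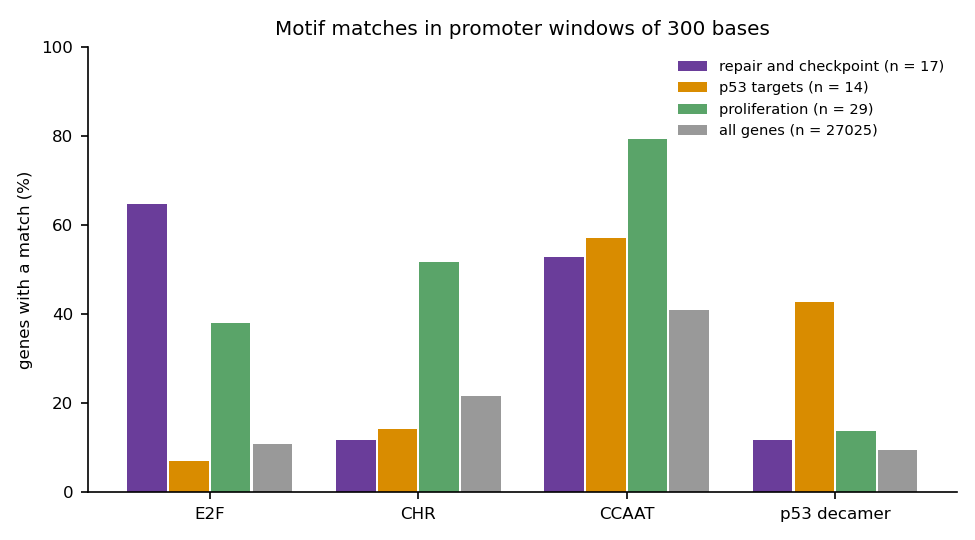
Share of genes (y axis, percent) with at least 1 motif match in a promoter window of 300 bases, for 4 motifs (x axis); bars are repair and checkpoint genes, p53 targets, proliferation genes and all genes, with the number of genes in the legend. E2F matches stand at 64.7% of repair genes and 7.14% of p53 targets, and single p53 decamers at 11.8% and 42.9%. The repair genes and p53 targets drawn are those of the group. Further p53 targets, not drawn, had an E2F match in 42.9%.

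The libraries held between 18054322 and 35247472 estimated reads. Srp72 itself was at 71.7, 45.6 and 109.6 CPM (reads scaled to library size by TMM) in Srp72+/- 1 to 3, against 99.4, 136, 103 and 88.2 CPM in WT 1 to 4, so the library labelled Srp72+/- 3 was not below the WT libraries. Markers of other cells differed between libraries. The 14 stem cell markers summed to between 1589 and 2708 CPM in Srp72+/- libraries and to 235.7 CPM in WT 2, against 2607 to 3180 CPM in the other WT libraries. Procr and Hlf, which mark stem cells, were at 8.98 and 271 CPM in Srp72+/- 1, and at 0.0638 and 13.1 CPM in WT 2. The 10 neutrophil markers summed to 12420, 5313 and 1219 CPM in Srp72+/- 1 to 3, against 170.6, 39750, 8801 and 2922 CPM in WT 1 to 4. S100a8 and S100a9 led that list in WT 2 at 8423 and 11860 CPM. Erythroid markers summed to 6749 CPM in Srp72+/- 1 and 8968 CPM in WT 2, and to between 401.7 and 1594 CPM elsewhere, with Hba-a1 and Hba-a2 among them. B cell markers summed to 4219 CPM in Srp72+/- 1 and 10260 CPM in WT 2, although Cd79a stayed at or below 13.8 CPM in every library. T and NK cell markers summed to between 43.4 and 194.7 CPM, monocyte and macrophage markers to between 10.3 and 821.7 CPM, and megakaryocyte markers to between 40.4 and 1274 CPM, highest in Srp72+/- 3. WT 2 and Srp72+/- 1 thus stood apart, and values without them stand beside some of the genes. Their part in the results was not tested. In bulk libraries fewer cells of a type and less RNA per cell cannot be told apart.

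Between the genotypes, no gene of the group passed the test. By edgeR's quasi-likelihood test with Benjamini-Hochberg adjustment over 20314 genes, 0 genes (0.0%) had an adjusted p below 0.05, and the smallest adjusted p was 0.9998. Unadjusted, 365 genes (1.8%) had a p below 0.05, and DESeq2 called 9 (0.0443%), none of them in the group. Of the 43 genes 42 were tested, and Phlda3 was too low. Dclre1a was the 1 gene of the 42 at an unadjusted p below 0.05 (higher, where 1.01% of all genes were). Of the 42 genes 21 had a higher and 21 a lower fitted value in Srp72+/- cells, where 49.3% of all genes were higher, and their median log2 fold change was -0.02. The biological coefficient of variation between libraries was 0.628.

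The fitted values of p53 targets and repair genes are given as counts, since no gene passed. Of 20 tested p53 targets 7 were higher and 13 lower (median log2 fold change -0.12), and of 19 repair and checkpoint genes 12 were higher and 7 lower (median 0.08, and -0.11 with an offset for transcript length). The median over all genes was -0.01. The counts depended on the setting. Over the settings tried 7 to 12 of the p53 targets were higher, with 10 without WT 2 and 12 with the replicate block. Of the 19 repair and checkpoint genes 8 to 13 were higher, with 8 under the length offset and 13 without WT 2. In 4 genes the 3 Srp72+/- and 4 WT libraries did not overlap: Eda2r, Chek2 and Dclre1a lay above WT and Xpc below it, where 2.08% of all genes lay above, 1.49% below and 3.57% either. These 4 overlapped in TPM, in which Brca1 and Xrcc6 lay above WT without overlap and 0 of the 43 genes below it, where 4.23% of all genes lay above and 0.389% below. TPM was not scaled by TMM. In protein-coding transcripts alone Xrcc6 still lay above WT, and Brca1 overlapped. Atm then also lay above WT, at 6.72, 6.86 and 8.77 TPM in Srp72+/- cells against 5.71, 2.17, 5.95 and 5.17 TPM in WT cells. The share of all genes without overlap in coding TPM was not counted, so these separations have no background to be read against.

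**Figure D2:**
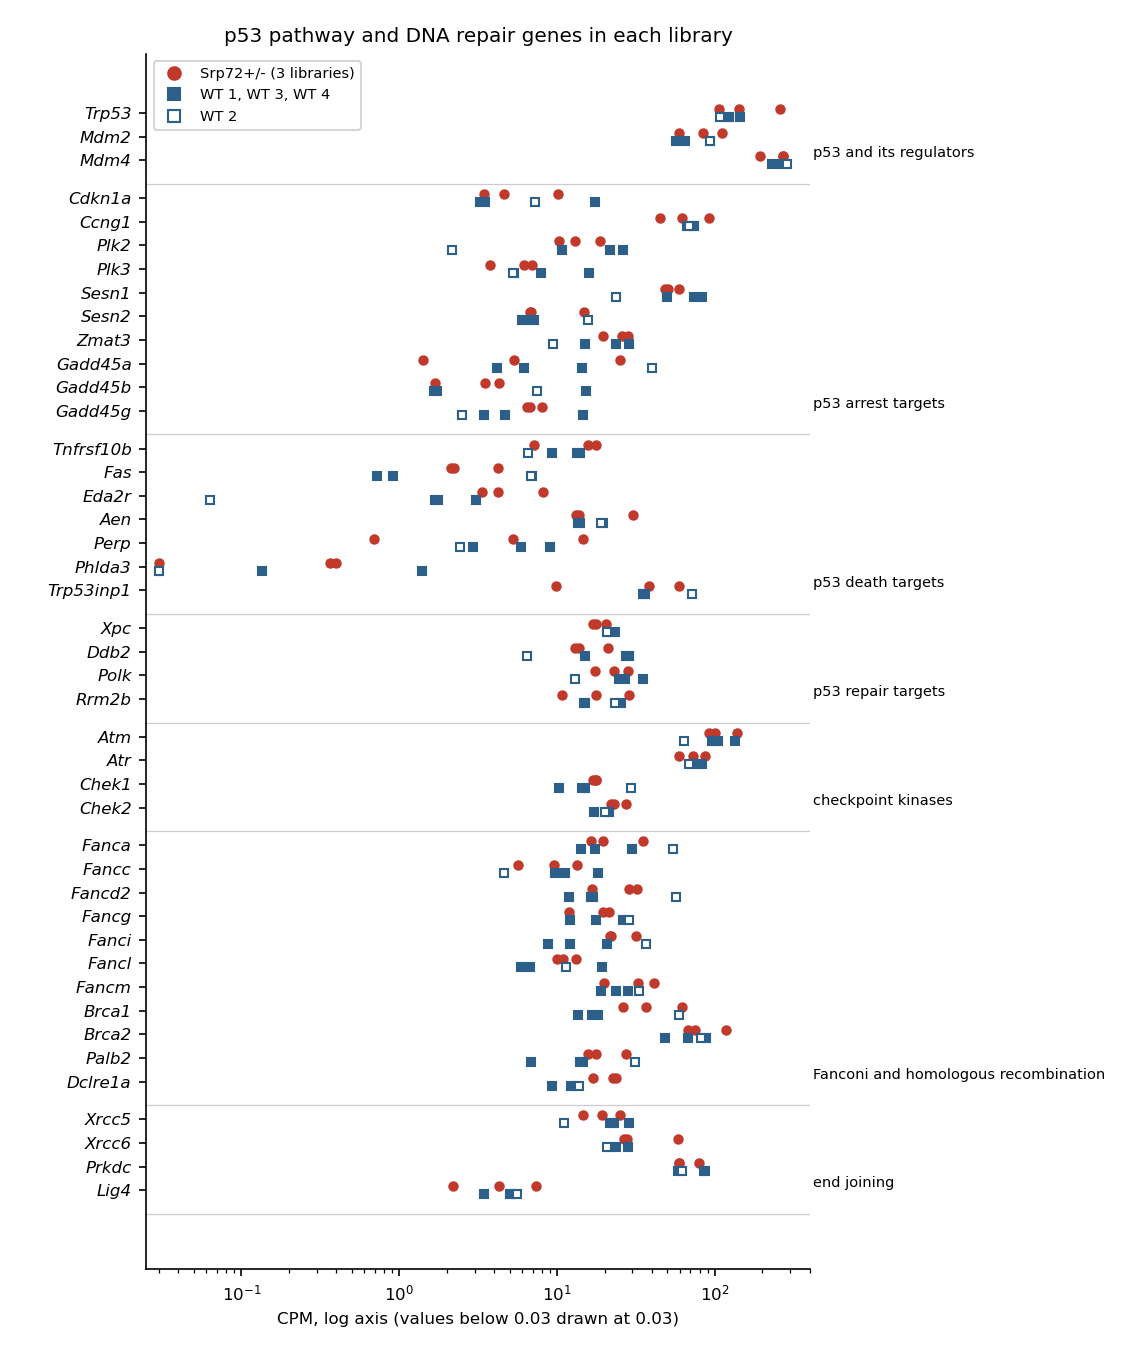
CPM on a log axis (x) of the 43 genes (y), grouped by role, in each library; red circles are Srp72+/-, blue squares WT, and the open square is WT 2. In most rows the circles and squares interleave, and WT 2 stands at an end of the row for Fancd2, Eda2r and Sesn1.

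Trp53 and Mdm4 were the 2 most abundant of the 43 genes in TPM and Mdm2 was rank 6, but these summed levels include transcripts that do not code for protein. In TPM, an abundance corrected for transcript length, Trp53 averaged 38.2 over the 7 libraries, Mdm4 36.4 and Mdm2 17.7. Trp53 (chromosome 11, 69580359 to 69591873, GRCm38) was at 105, 141 and 258 CPM in Srp72+/- 1 to 3, against 123, 107.7, 144 and 123 CPM in WT 1 to 4. The 1 high value was that of the library labelled Srp72+/- 3. The log2 fold change was 0.44 (SE 0.31, edgeR adjusted p = 0.9998), and it was -0.02 without Srp72+/- 3. Mdm4, which inhibits p53, was at 268, 269 and 192 CPM in Srp72+/- cells, against 231, 288, 273 and 256 CPM in WT cells. Mdm2, the ligase that degrades p53 and is itself a p53 target, was at 110.2, 83.4 and 59.3 CPM in Srp72+/- cells, against 65.0, 93.1, 92.7 and 56.3 CPM in WT cells. For both inhibitors the groups overlapped, with log2 fold changes of -0.11 (Mdm4, SE 0.21) and 0.13 (Mdm2, SE 0.29).

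Among the 10 p53 targets of cell cycle arrest and stress, 3 were higher and 7 lower. Cdkn1a, which inhibits cyclin-dependent kinases and is the standard p53 target, was at 3.43, 10.2 and 4.598 CPM in Srp72+/- cells against 3.24, 7.27, 17.5 and 3.498 CPM in WT cells. Its log2 fold change was -0.38 (SE 0.70), and it was 0.35 without WT 3, the library with the highest value. Gadd45b, a stress-induced activator of kinase signalling, was at 1.69, 3.47 and 4.30 CPM in Srp72+/- cells, against 1.73, 7.46, 15.2 and 1.66 CPM in WT cells (log2 fold change -1.04, SE 0.85, and -0.22 without WT 3). Plk3, a stress-response kinase, was at 6.92, 6.14 and 3.75 CPM in Srp72+/- cells, against 7.88, 5.23, 16.0 and 5.34 CPM in WT cells (log2 fold change -0.62, SE 0.52, and -0.16 without WT 3). WT 3 was the highest library for Cdkn1a, Gadd45b and Plk3, and for 5 of the 10 arrest targets, where it was highest for 11.9% of all genes.

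Zmat3, an RNA-binding p53 target, was at 19.6, 25.7 and 28.3 CPM in Srp72+/- cells against 28.6, 9.38, 15.1 and 23.8 CPM in WT cells (log2 fold change 0.35, SE 0.40, and 0.13 without WT 2). Sesn1, a sestrin that restrains growth signalling and the most abundant arrest target at 12.6 TPM, was at 50.7, 58.8 and 48.6 CPM in Srp72+/- cells against 73.7, 23.7, 49.7 and 82.4 CPM in WT cells. Its lowest value was that of WT 2, and its log2 fold change was -0.12 (SE 0.40), -0.38 (SE 0.25) without WT 2 and 0.17 with a transcript length offset. Sesn2, its relative, was the least abundant in summed TPM at 1.09, while in protein-coding transcripts Plk3 was lower at 0.591 TPM. Sesn2 was at 6.71, 6.86 and 14.7 CPM in Srp72+/- cells against 6.71, 15.7, 6.03 and 7.13 CPM in WT cells. The remaining arrest targets were Ccng1, between 44.7 and 92.0 CPM over the 7 libraries, Plk2, between 2.17 and 26.1 CPM, Gadd45a, between 1.42 and 39.7 CPM, and Gadd45g, between 2.49 and 14.7 CPM. Their groups overlapped. Gadd45a was highest in WT 2, and its log2 fold change was -0.61 (SE 1.03) with all 7 libraries and 0.36 (SE 0.93) without WT 2.

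Of the 6 tested p53 targets of cell death 4 were higher and 2 lower. Eda2r (chromosome X, 97333840 to 97377216), a receptor of the tumour necrosis factor receptor family, was at 8.19, 3.34 and 4.21 CPM in Srp72+/- cells, against 3.08, 0.0638, 1.68 and 1.75 CPM in WT cells. All 3 Srp72+/- values were above all 4 WT values, and WT 2 held 1 read. The log2 fold change was 1.67 (SE 0.91, edgeR adjusted p = 0.9998). Without WT 2 it was 1.28 (SE 0.57), still without overlap, and without WT 2 and Srp72+/- 1 it was 0.80 (SE 0.62). In TPM, which accounts for length, the groups overlapped at 0.772, 0.702 and 0.399 in Srp72+/- cells against 0.433, 0.0295, 0.34 and 0.315 in WT cells.

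Tnfrsf10b, a death receptor, was at 7.13, 15.8 and 17.6 CPM in Srp72+/- cells against 13.3, 6.57, 9.28 and 13.9 CPM in WT cells (log2 fold change 0.33, SE 0.43). Trp53inp1, a regulator of p53 activity and autophagy, was at 59.3, 38.3 and 9.86 CPM in Srp72+/- cells against 35.8, 71.1, 35.2 and 35.8 CPM in WT cells. The groups overlapped, with a log2 fold change of -0.31 (SE 0.55) that was 0.13 without the library labelled Srp72+/- 3 and 0.01 without WT 2. Aen, a nuclease, was the most abundant death target at 12.0 TPM, with 13.7, 13.1 and 30.3 CPM in Srp72+/- cells against 19.6, 18.95, 14.02 and 13.6 CPM in WT cells. Phlda3, an inhibitor of Akt, lay between 0 and 1.39 CPM. Fas lay between 0.727 and 6.95 CPM and Perp between 0.696 and 14.6 CPM.

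In the main edgeR fit the 4 p53 targets with a role in repair all had lower fitted values in Srp72+/- cells. Of the 4, 3 were lower with upper-quartile scaling, a transcript length offset or voom and without WT 1, WT 2 or WT 4, and 2 were lower with the replicate block, with the proliferation score as a covariate and without the library labelled Srp72+/- 3. Xpc (chromosome 6, 91489305 to 91515888), which detects helix distortions in nucleotide excision repair, was at 17.8, 17.01 and 20.5 CPM in Srp72+/- cells, against 20.7, 20.8, 22.0 and 23.2 CPM in WT cells. The groups did not overlap, although the highest Srp72+/- value (20.5 CPM) was close to the lowest WT value (20.7 CPM), and the log2 fold change was -0.23 (SE 0.24, edgeR adjusted p = 0.9998). In TPM the groups overlapped, at 2.30, 2.52 and 1.97 in Srp72+/- cells against 2.47, 1.63, 6.89 and 2.65 in WT cells, and with a transcript length offset the log2 fold change was -0.73 (SE 0.41). Ddb2, which recognises ultraviolet lesions, was at 13.7, 21.01 and 12.95 CPM in Srp72+/- cells against 14.98, 6.44, 28.8 and 27.3 CPM in WT cells (log2 fold change -0.29, SE 0.51, -0.57 without WT 2 and -0.04 without WT 3). Rrm2b, a ribonucleotide reductase subunit, was at 17.8, 28.5 and 10.8 CPM in Srp72+/- cells against 25.6, 23.2, 14.98 and 14.9 CPM in WT cells. Polk, a bypass polymerase, lay between 12.95 and 34.8 CPM.

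Of the 4 checkpoint kinases 3 were higher. Chek2 (chromosome 5, 110839979 to 110874145), the kinase downstream of Atm, was at 22.98, 21.95 and 27.3 CPM in Srp72+/- cells, against 20.9, 20.2, 21.4 and 17.04 CPM in WT cells. The groups did not overlap, and the log2 fold change was 0.28 (SE 0.24, edgeR adjusted p = 0.9998). In TPM they overlapped, at 35.3, 40.8 and 16.03 in Srp72+/- cells against 19.2, 11.7, 37.9 and 15.1 in WT cells. Atm was at 100.7, 92.0 and 138 CPM in Srp72+/- cells against 135, 63.2, 95.6 and 104 CPM in WT cells (log2 fold change 0.15, SE 0.29), and without WT 2 its log2 fold change was -0.01. Atr, which responds to stalled replication, was at 73.1, 58.8 and 85.9 CPM in Srp72+/- cells against 80.1, 68.7, 83.3 and 74.6 CPM in WT cells. Chek1, its effector, was at 16.9, 17.6 and 17.5 CPM in Srp72+/- cells against 14.9, 29.4, 14.5 and 10.4 CPM in WT cells. The Chek1 log2 fold change of 0.00 (SE 0.38) was negative with RLE scaling, and it was 0.39 (SE 0.30) without WT 2, when the groups no longer overlapped.

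Fanconi and recombination genes held the 1 gene below an unadjusted p of 0.05 and several values that depended on WT 2. Of the 11 genes 8 were higher (median log2 fold change 0.26, and -0.18 with a transcript length offset). Without Srp72+/- 1 or without WT 4, 6 of the 11 were higher (median 0.0013 in each fit), and the median was 0.07 without the library labelled Srp72+/- 3. Dclre1a (chromosome 19, 56529167 to 56548222), a nuclease of crosslink repair, was at 23.6, 16.96 and 22.7 CPM in Srp72+/- cells, against 9.28, 13.8, 12.3 and 13.1 CPM in WT cells. All 3 Srp72+/- values were higher than all 4 WT values, with means of 21.1 ± 3.59 CPM and 12.1 ± 1.98 CPM (SD, n = 3 and n = 4; edgeR adjusted p = 0.9998). The log2 fold change was 0.80 (SE 0.29). With a transcript length offset it was 0.53 (SE 0.58), and in TPM the groups overlapped, at 11.0, 7.78 and 2.53 in Srp72+/- cells against 1.76, 1.89, 8.58 and 4.84 in WT cells.

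Brca1 (chromosome 11, 101488764 to 101551955), the recombination factor, was at 61.7, 26.4 and 36.3 CPM in Srp72+/- cells, against 18.1, 59.5, 16.7 and 13.5 CPM in WT cells. WT 2 was second to Srp72+/- 1, and the other 3 WT libraries were below all Srp72+/- libraries. The log2 fold change was 0.62 (SE 0.56, edgeR adjusted p = 0.9998), and 1.37 without WT 2 (SE 0.35, edgeR adjusted p = 0.977). Without WT 2 and Srp72+/- 1 it was 0.96 (SE 0.31), and without Srp72+/- 1 alone 0.19. In TPM Brca1 was at 6.11, 3.8 and 3.68 in Srp72+/- cells against 3.03, 3.30, 1.32 and 1.94 in WT cells, without overlap. In its protein-coding transcripts alone the groups overlapped, at 3.41, 1.68 and 1.30 TPM against 1.72, 2.15, 1.13 and 0.496 TPM. Fancd2, the protein marked when the pathway is active, was at 28.7, 16.7 and 32.2 CPM in Srp72+/- cells against 16.3, 56.7, 16.8 and 11.9 CPM in WT cells. Its log2 fold change was 0.02 (SE 0.56), -0.02 with RLE scaling, and 0.79 (SE 0.33, edgeR adjusted p = 0.977) without WT 2. Fanci, its partner, was at 31.5, 21.5 and 22.0 CPM in Srp72+/- cells against 20.7, 36.4, 8.71 and 12.2 CPM in WT cells. Its log2 fold change was 0.36 (SE 0.48), -0.19 with a transcript length offset, 0.09 without WT 3, and 0.86 (SE 0.38, edgeR adjusted p = 0.977) without WT 2.

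Palb2, which links Brca1 to Brca2, was at 17.7, 15.8 and 27.5 CPM in Srp72+/- cells against 14.6, 31.2, 13.9 and 6.86 CPM in WT cells (log2 fold change 0.29, SE 0.50, -0.27 with a transcript length offset and 0.79 without WT 2). Brca2, a mediator of homologous recombination, was at 67.6, 74.8 and 117 CPM in Srp72+/- cells against 87.4, 82.1, 67.6 and 48.3 CPM in WT cells (log2 fold change 0.28, SE 0.29, and -0.04 with a transcript length offset). Fanca, of the core complex, was at 34.9, 16.5 and 19.7 CPM in Srp72+/- cells against 17.5, 54.6, 29.9 and 14.2 CPM in WT cells. It was the most abundant of the list in summed TPM at 13.3. In protein-coding transcripts Fanca was at 2.83 TPM, below Fancm (5.47 TPM), Fancl (4.76 TPM) and Fanci (3.65 TPM). Over the 7 libraries the core complex genes Fancc, Fancg, Fancl and Fancm lay between 4.59 and 40.9 CPM, and their groups overlapped.

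Without WT 2, 4 of the 42 genes were at an unadjusted p below 0.05, namely Brca1, Fancd2, Fanci and Dclre1a, all higher, where 2.61% of 19856 genes were, and 0 were lower, where 2.23% were. Of the 42 genes 25 then had a higher fitted value, against 53.1% of all genes. Without WT 2, 7 genes lay above WT without overlap (Eda2r, Chek1, Chek2, Fanci, Brca1, Palb2 and Dclre1a), where 4.74% of genes did, and Xpc below it, where 5.33% did. The smallest adjusted p among the 42 genes was then 0.977. With WT 2 and Srp72+/- 1 both left out, Brca1 and Xrcc6 were the 2 of the 42 genes at an unadjusted p below 0.05, and Dclre1a, Fancd2 and Fanci were not, against 4.03% of 21073 genes. Both were higher, where 2.11% of genes were, and 0 were lower, where 1.92% were.

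**Figure D3:**
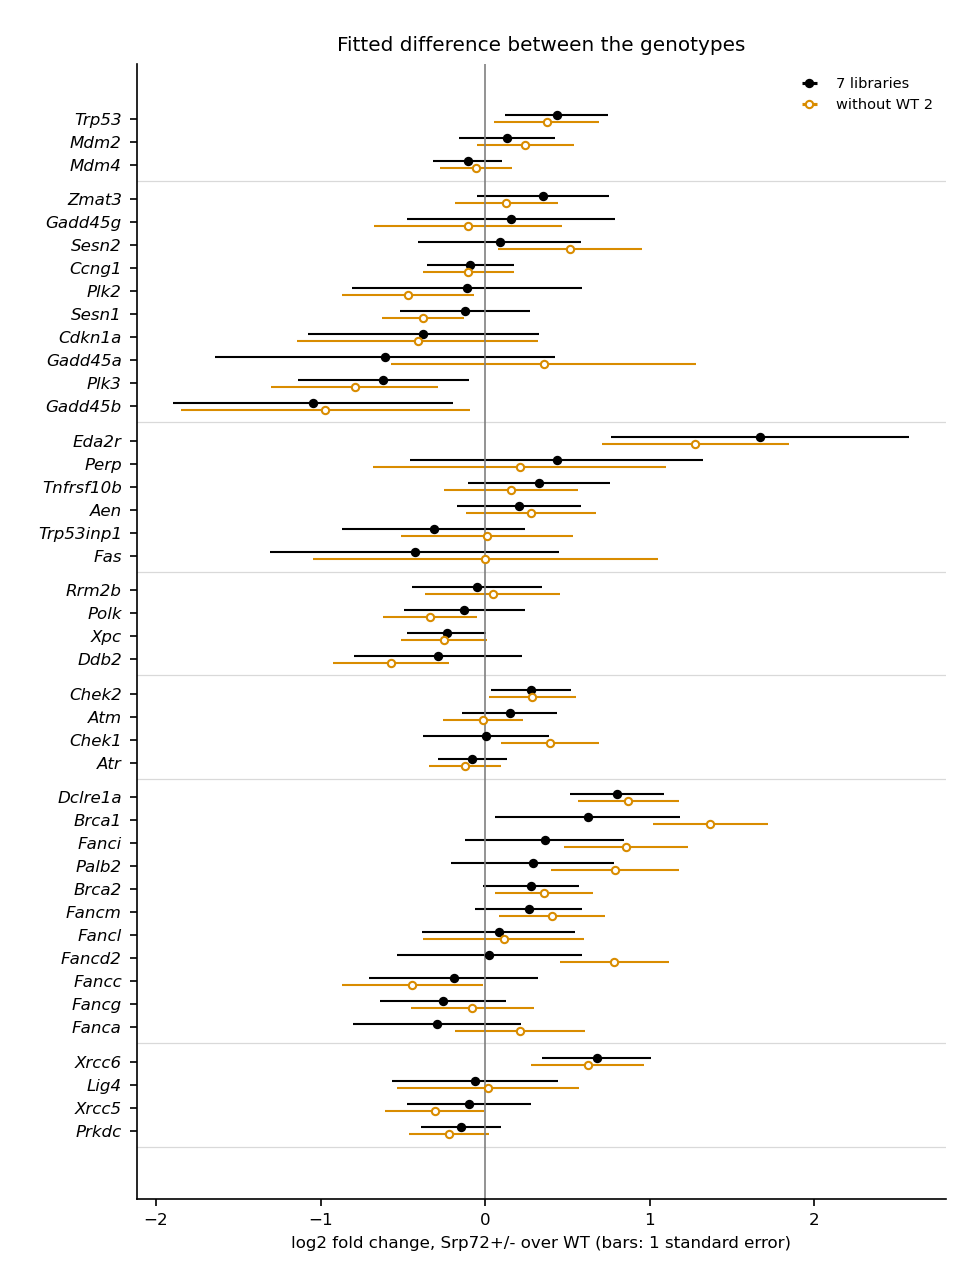
Fitted log2 fold change of Srp72+/- over WT (x axis) for the 42 tested genes (y axis, by role), with bars of 1 standard error; filled black points use the 7 libraries and open orange points leave out WT 2. Brca1, Fancd2, Fanci and Palb2 move right without WT 2, to 1.37, 0.79, 0.86 and 0.79, while Dclre1a is at 0.87 without WT 2 and 0.80 with it.

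End joining, which ligates broken ends directly, had 1 higher and 3 lower genes. Xrcc6, the Ku70 end-binding protein, was at 26.7, 27.9 and 58.7 CPM in Srp72+/- cells, against 28.1, 20.8, 23.5 and 22.1 CPM in WT cells. The library labelled Srp72+/- 3 held the high value, WT 1 lay above the other 2 Srp72+/- libraries, and the log2 fold change was 0.68 (SE 0.33, edgeR adjusted p = 0.9998). It was 0.20 without that library. In TPM Xrcc6 was at 29.6, 25.7 and 41.9 in Srp72+/- cells against 24.0, 10.2, 20.6 and 17.3 in WT cells, without overlap. Prkdc, the kinase that Ku recruits, was at 59.1, 59.1 and 79.5 CPM in Srp72+/- cells against 85.1, 61.4, 58.7 and 86.6 CPM in WT cells (log2 fold change -0.15, SE 0.24, and 0.17 with a transcript length offset). Lig4, the ligase, was the least abundant at 0.438 TPM, with 7.40, 4.32 and 2.18 CPM in Srp72+/- cells against 3.47, 5.55, 5.22 and 5.07 CPM in WT cells. Xrcc5, the other Ku subunit, lay between 11.1 and 28.7 CPM.

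Other genes of the same pathways gave 0 calls by edgeR's adjusted p and 0 at an unadjusted p below 0.05, where 1.8% of all genes were. Of all genes 49.3% had a higher fitted value. Of 14 tested further p53 targets 9 were higher and 5 lower, with Ppm1d, a phosphatase that restrains p53, at 23.6 ± 6.83 CPM in Srp72+/- cells and 18.7 ± 3.13 CPM in WT cells, and Pidd1 at 27.8 ± 7.89 CPM and 22.5 ± 4.12 CPM (SD, n = 3 and n = 4). Of 28 further Fanconi and recombination genes 15 were higher and 13 lower. Xrcc2, a recombination factor, was at 5.97 ± 2.29 CPM in Srp72+/- cells and 10.7 ± 3.39 CPM in WT cells without overlap, where 1.49% of all genes lay below WT. Mre11a, a nuclease of break sensing, was at 52.3 ± 10.1 CPM and 39.3 ± 5.37 CPM. Of 13 further checkpoint genes 8 were higher, with Hus1 at 46.4 ± 1.31 CPM in Srp72+/- cells and 36.8 ± 14.1 CPM in WT cells and Rad1 at 17.1 ± 2.65 CPM and 13.8 ± 2.29 CPM, both parts of the damage-sensing clamp. Of 6 further end joining genes 2 were higher. Paxx was at 12.6 ± 1.32 CPM in Srp72+/- cells and 8.80 ± 0.816 CPM in WT cells without overlap, where 2.08% of all genes lay above WT. Xrcc4 was at 8.61 ± 3.43 CPM and 12.6 ± 1.91 CPM. Of 24 excision, mismatch and bypass genes 18 were higher, with Rad23b at 77.3 ± 12.95 CPM in Srp72+/- cells and 98.3 ± 13.7 CPM in WT cells and Xpa at 11.8 ± 5.18 CPM and 8.01 ± 2.03 CPM, both of excision repair. Under the other settings 11 to 18 of the 24 were higher. The count was 14 with RLE scaling or DESeq2, 12 with voom or without WT 3, and 11 without the library labelled Srp72+/- 3.

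The level of each gene was set beside a proliferation score. The score, the mean log2 CPM of 35 genes of replication and mitosis, was 6.44, 5.47 and 6.41 in Srp72+/- 1 to 3, against 5.59, 6.98, 5.57 and 5.12 in WT 1 to 4. The scores fell into 4 low and 3 high libraries with a gap of 0.825 between them, so no correlation over the libraries is given. WT 2 had the highest score and WT 4 the lowest. Brca1, Fancd2, Palb2 and Chek1 were most like the score by Pearson r, and Ddb2 and Sesn1 least like it. Since they were chosen for this, that the first 4 were lowest in WT 4 and that Ddb2 and Sesn1 were lowest in WT 2 follows in part from the choice. Of the 19 repair and checkpoint genes, WT 4 was the lowest library for 8 (42.1%, against 12.7% of all genes) and WT 2 the highest for 6 (31.6%, against 22.8%) and the lowest for 4 (21.1%, against 26.9%). Of the 20 p53 targets WT 2 was the lowest library for 8 (40%, against 26.9%) and the highest for 3 (15%, against 22.8%).

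The direction of the 35 proliferation genes between the genotypes depended on single libraries. With all 7 libraries 28 of 35 were higher in Srp72+/- cells (median log2 fold change 0.16). Without WT 2, 35 of 35 were higher (median 0.75, 19 of them at an unadjusted p below 0.05, where 2.61% of all genes were higher at that p). Without WT 4, 11 of 35 were higher (median -0.12), without Srp72+/- 1 12 of 35 (median -0.08), and without the library labelled Srp72+/- 3 16 of 35 (median -0.01). Tk1, a thymidine kinase of S phase, was at 51.3 ± 15.4 CPM in Srp72+/- cells and 33.4 ± 13.7 CPM in WT cells, and Mcm2, of the replicative helicase, at 78.0 ± 44.8 CPM and 52.3 ± 24.9 CPM (SD, n = 3 and n = 4). With the score as a covariate the median log2 fold change of the 11 Fanconi and recombination genes was 0.12, against 0.26 without it. The median over all genes was 0.09 with the covariate and -0.01 without it. With the covariate 0 genes passed edgeR's adjusted threshold. At an unadjusted p below 0.05 were 715 of 20314 genes, 2 of them among the 42.

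**Figure D4:**
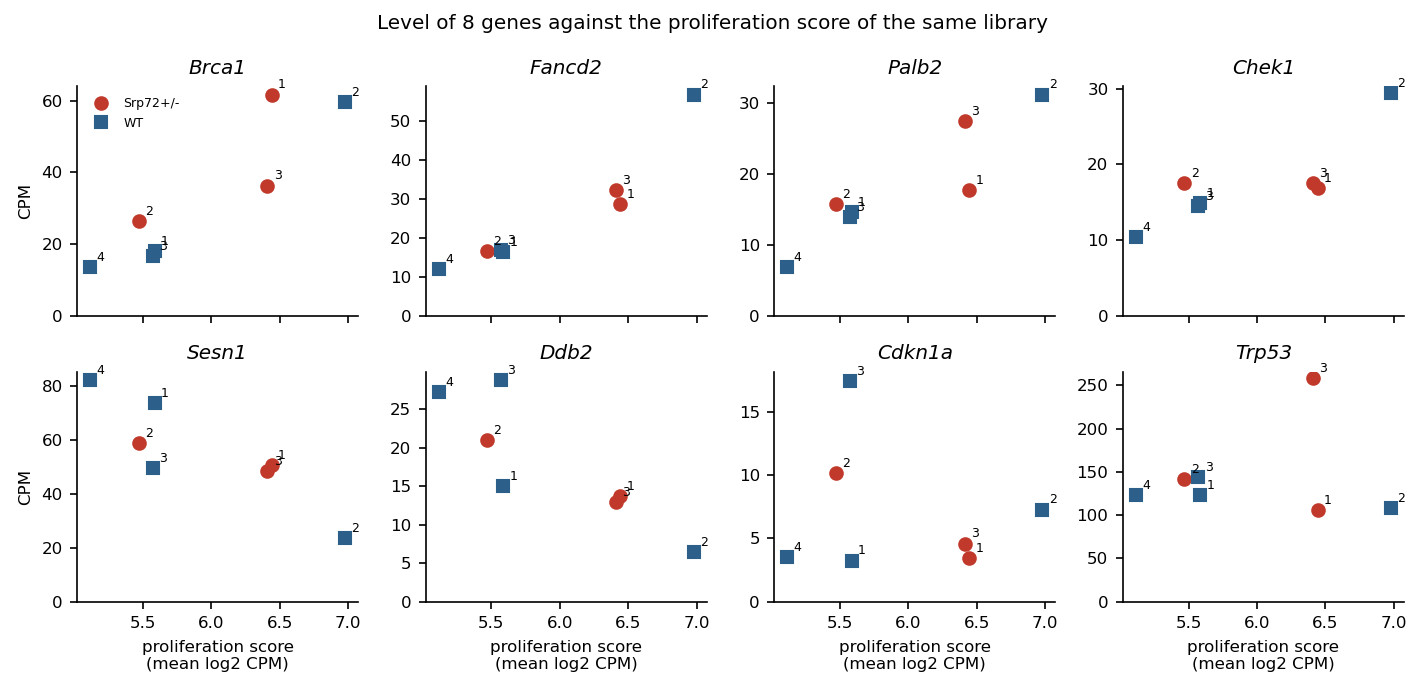
CPM (y axis) of 8 genes against the proliferation score (x axis, mean log2 CPM of 35 genes) in each library; red circles are Srp72+/-, blue squares WT, and numbers are replicates. The 4 genes of the upper row were chosen for their likeness to the score and Sesn1 and Ddb2 for their unlikeness; Chek1 was about as high in Srp72+/- 2 (score 5.47) as in Srp72+/- 1 and 3 (6.44 and 6.41).

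The authors' tool divided reads among the annotated transcripts of a gene, and for many repair genes most of the summed TPM went to transcripts that do not code for protein. Protein-coding transcripts held under 50% of the TPM for 15 of the 43 genes, which were 10 of the 19 repair and checkpoint genes, 3 of the 21 p53 targets, and Mdm2 and Mdm4. The same share over all genes was not counted, so these counts are not read as a trait of repair genes. The number of annotated transcripts also differed between genes, from 1 for Sesn2 to 19 for Fancc. For Atm 71.0% of the TPM, but 1.93% of its reads, went to Atm-202, a retained intron transcript of 281 bases. For Chek2 78.4% of the TPM and 19.9% of its reads went to Chek2-202, a processed transcript of 341 bases. For Mdm2 the nonsense-mediated decay transcript Mdm2-209 held 39.4% of the TPM. In coding transcripts Trp53 was still first at 32.6 TPM, followed by Mdm4 at 14.1 TPM and Xrcc6 at 12.1 TPM. Atm was then at 5.91 TPM, Chek2 at 3.75 TPM and Mdm2 at 2.50 TPM. The median over the 19 repair and checkpoint genes was 2.77 TPM in coding transcripts, and over the 21 p53 targets it was 2.18 TPM. Short transcripts weigh heavily in TPM, so the order of summed levels depends on them, while CPM, a share of reads, does not divide by length.

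**Figure D5:**
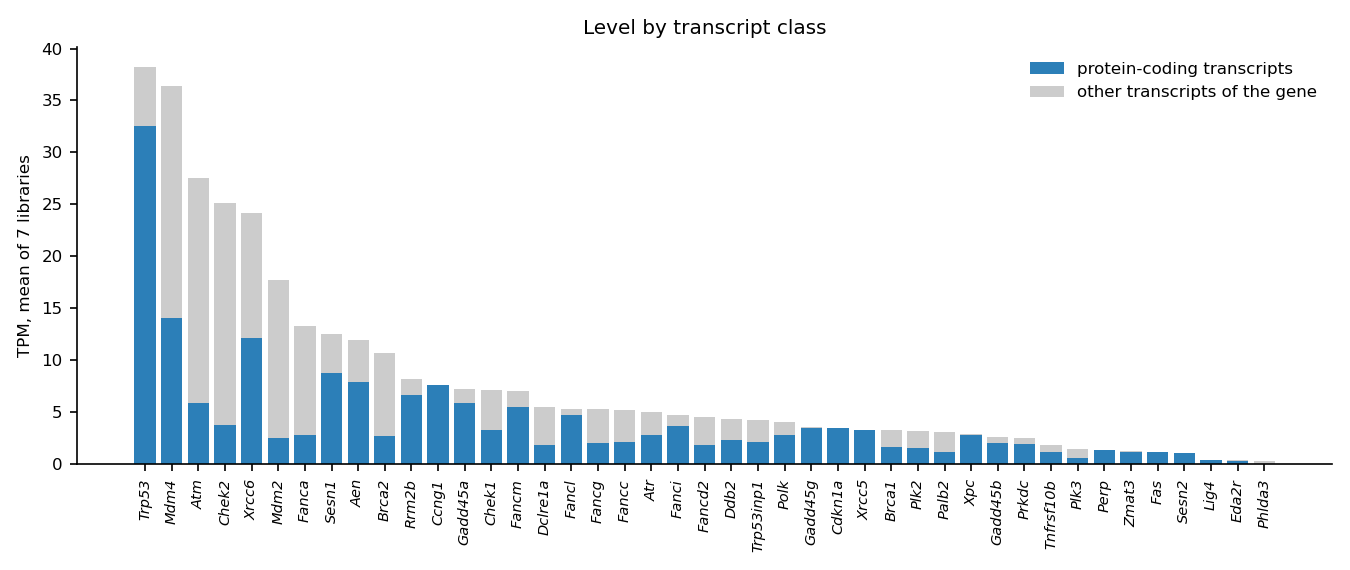
Mean TPM over the 7 libraries (y axis) of the 43 genes (x axis, ordered by summed TPM), with the part in protein-coding transcripts in blue and the rest in grey. Trp53 is mostly blue (32.6 of 38.2 TPM), while Atm (5.91 of 27.6) and Chek2 (3.75 of 25.1) are mostly grey.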

How the data were processed

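RNA of sorted LT-HSCs was sequenced in 3 Srp72+/- and 4 WT libraries, grouped by their titles. Per the labels' protocols it was amplified with the Ovation RNA-seq V2 system. The deposited tables hold one estimated count of reads (expected counts) per transcript, made by the authors with Salmon 0.12.0 per the submitters' processing notes, which also name GRCm38.p6 and mm10. They also hold TPM values deposited by the authors. Not given in the sources used here are the transcript release, the strand setting and the bias options. Values of antisense partners and close copies are therefore uncertain.

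Of 136288 transcripts 136176 matched GENCODE M21, and the 112 unmatched held at most 0.0622% of reads. Counts and TPM were summed per gene, and counts were rounded. Genes were filtered with filterByExpr (minimum count 10, total 15), scaled by TMM and tested with the quasi-likelihood method of edgeR 4.0.16 (robust, R 4.3.3), adjusted over 20314 genes with a threshold of 0.05. Log2 CPM for scores used a prior count of 2. Alternatives were scaling by RLE or by the upper quartile, a fit with no filter and a stricter filter (mean of 10 counts, 1 CPM in 3 libraries). Others were a length offset, DESeq2 1.42.0, voom with sample quality weights (limma 3.58.1), a replicate block, a proliferation covariate and libraries left out. Wherever voom is named, the libraries had unequal weights. The fit was also run on simulated counts with known folds. These held no library set apart as WT 2 was, so that run does not cover such a library.

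Library values are given for the 3 genes of smallest p in each role group of over 4 genes (2 in smaller ones), genes without overlap, the highest and lowest TPM, and the 4 most and 2 least like the proliferation score by Pearson r. Mean and SD are given for the 2 smallest p of each further list. Cdkn1a, Fanci, Gadd45a and the range values of other genes are outside this rule and were chosen after their values were seen. The genes and lists were chosen with earlier results of these data known. The p53 motifs and the split by transcript class were added after seeing the data. A floor of 3 counts is between 0.0851 and 0.166 CPM before scaling. Amplified reads are not independent molecules. The labels number the libraries, but no source pairs them.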

Additional observations from a re-analysis of the deposited data

Results flagged for a closer look

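In 5 of the 43 genes 1 WT library lay far from the other 3, with a gap above Dixon's 95% critical value for 4 samples. That is 11.6% of the 43 genes, against 10.7% of all 20314 genes tested, and chance flags about 1 in 20 groups. Of the genes so marked among all genes, 66.9% were marked in WT 2, and 4 of these 5 were. In WT 2, Brca1 was at 59.5 CPM (the other WT libraries 13.5 to 18.1 CPM), Fancd2 at 56.7 CPM (11.9 to 16.8 CPM), Trp53inp1 at 71.1 CPM (35.2 to 35.8 CPM) and Sesn2 at 15.7 CPM (6.03 to 7.13 CPM). Phlda3 was at 1.39 CPM in WT 3 (0 to 0.135 CPM in the others). WT 2 is also the library with the fewest stem cell marker transcripts and the highest proliferation score, and the part of either in these values was not tested.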

How the results depend on the processing

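The number of genes past the adjusted threshold was 0 by edgeR with every scaling, filter, offset, block and covariate tried and by voom, and 9 by DESeq2. Leaving out 1 library at a time gave 0 to 1 genes, with the 1 gene without WT 4. No gene of the group passed under any of these. Of 42 genes the direction changed for 16 with the length offset, 14 without Srp72+/- 3, 9 each with voom, the block and the covariate, and 0 to 8 under the others. With the length offset the log2 fold change was -0.061 for Mdm2, 0.048 for Mdm4, 0.17 for Trp53inp1, -0.69 for Chek1, -0.040 for Brca2, -0.67 for Fancd2, -0.19 for Fanci, -0.27 for Palb2, 0.17 for Sesn1, 0.17 for Prkdc and -0.34 for Hus1, and the median was -0.11 for repair and checkpoint genes and -0.18 for Fanconi and recombination genes. With RLE scaling it was -0.032 for Chek1 and -0.018 for Fancd2, with the stricter filter -0.016 and -0.0061, and with DESeq2 -0.032 and -0.019. With voom, which also weighted the libraries, it was 0.017 for Mdm4, 0.19 for Cdkn1a and -0.095 for Atm. With the proliferation covariate it was 0.18 for Ddb2, 0.26 for Sesn1, -0.038 for Chek1 and -0.075 for Fancd2. The p53 target median was then 0.018, where the median of all genes was 0.087. Without WT 2 and Srp72+/- 1 the p53 target median was -0.29. The cause of these changes was not tested. With no filter the median of all genes was 0.13, against -0.01.

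Leaving out each library in turn gave log2 fold changes of -0.020 to 0.67 for Trp53, -0.13 to 0.33 for Mdm2, -0.20 to 0.030 for Mdm4, -0.98 to 0.35 for Cdkn1a, -0.91 to 0.13 for Trp53inp1, -2.29 to 0.36 for Gadd45a, -0.38 to 0.084 for Sesn1, -0.20 to 0.39 for Chek1, -0.052 to 0.33 for Atm, -0.010 to 0.41 for Brca2, -0.24 to 0.79 for Fancd2 and -0.0073 to 0.95 for Mcm2, and medians of -0.062 (without WT 4) to 0.29 (without WT 2) for repair and checkpoint genes and -0.12 (without WT 4) to 0.75 (without WT 2) for proliferation genes.

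Libraries with the same number did not deviate together (correlations -0.316, -0.162 and 0.00177). Libraries with different numbers gave -0.233 to 0.395. These few values cannot show whether the numbers pair the libraries. With the replicate block 0 genes passed and 139 were at an unadjusted p below 0.05, against 365 without it. The log2 fold change was then -0.017 for Mdm2, 0.12 for Ddb2, 0.24 for Sesn1 and -0.093 for Chek1. The p53 target median was 0.073, where the median of all genes was 0.034. Other settings for a correlation with the proliferation score were not run, as the scores fell into separate clusters. Genes near a few reads, such as Phlda3 and Eda2r in WT 2, are limited by depth.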
